A study of Mus musculus with 6 samples.

Results

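A set of 61 genes, of 15528 gene symbols in the table, was almost silent in control libraries of mouse cells and was counted in all 3 libraries of cells treated with red blood cells. The cells are labelled as lymphatic endothelial cells, the lining cells of lymphatic vessels. The 6 libraries were 3 controls and 3 of cells given red blood cells, named RBC-treated here, all taken at 24 h, with no genotype, strain, donor or dose of red cells given in the labels. The genes were chosen on raw counts, with at most 15 counts summed over the controls, at least 15 summed over the treated libraries, and a treated sum at least 5 times the larger of the control sum and 1. Another 14 genes were left out by name, the adult globins and Alas2 among them. Because the counts of both groups chose the 61 genes, their difference between the groups is a description, and a test of it supports nothing. The labels give no purity of the red cells, and RNA that came with added blood cells and RNA made by the labelled cells cannot be told apart in these libraries.

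Blood carries several kinds of cell besides red cells. Mature red cells have no nucleus, and young ones, the reticulocytes, still hold messenger RNA, mostly of globin. White cells keep their nuclei and transcribe genes that other tissues lack, such as the CD45 phosphatase gene Ptprc. Macrophages and their monocyte precursors carry receptors and enzymes for engulfing and killing microbes, B cells carry the receptor complex that recognises antigen, and both present peptides on class II molecules. By what is known of their expression, the genes point to myeloid cells, B cells and class II presenting cells, without settling which myeloid cell. Myeloid genes held the most treated counts, in a grouping by role made after the values were seen. The marker lists differ in length. Of list genes with at most 15 control counts, 9 of 32 for monocytes and macrophages were members. The same held for 4 of 14 for B cells, 4 of 12 for class II and dendritic cells, 9 of 19 for white cells in general and 1 of 18 for neutrophils. Over all genes with at most 15 control counts, 70 of 3942 (1.78%) met the rule, 9 of these left out by name. The lists were chosen with earlier results known, and the rule used these counts, so the shares are a description and no test. The group had no gene of the lists of T and NK cells, of platelets or of mast cells, basophils and eosinophils. In these lists, in that order, only 11, 8 and 5 genes had at most 15 control counts. Of their 29, 20 and 16 genes, 15, 7 and 10 are not listed in the count table.

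Promoters of 4 genes are printed, 3 with a short motif and 1 without it, since the count rule did not use sequence. The 250 bases before the transcription start are from RefSeq (GRCm38.p6, another build than that of the counts), 5′ to 3′ on the gene's strand. They were found for 43 of the 61 genes, in 56 windows. Capitals mark GAGGAAGT on either strand, a form of the site bound by PU.1, the transcription factor of myeloid and B cells. Vav1 (chr17:57278850-57279099, plus strand) is shown because its match lies at position -11, counted from the start. Bcl2a1b (chr9:89199023-89199272, plus strand) and Bcl2a1d (chr9:88731851-88732100, minus strand) are shown because they are near-identical copies, and Mpeg1 (chr19:12460520-12460769, plus strand) because it had the most counts of the myeloid genes; its window holds no match.
Vav1: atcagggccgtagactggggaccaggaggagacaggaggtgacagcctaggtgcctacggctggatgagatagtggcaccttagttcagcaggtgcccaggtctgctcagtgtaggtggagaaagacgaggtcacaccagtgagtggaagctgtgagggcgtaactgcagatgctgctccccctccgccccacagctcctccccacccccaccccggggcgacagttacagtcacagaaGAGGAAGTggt
Bcl2a1b: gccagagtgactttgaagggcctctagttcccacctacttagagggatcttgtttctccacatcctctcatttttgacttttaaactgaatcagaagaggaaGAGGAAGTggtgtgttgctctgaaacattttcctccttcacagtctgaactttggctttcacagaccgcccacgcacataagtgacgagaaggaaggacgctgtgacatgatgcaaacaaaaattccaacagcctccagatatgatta
Bcl2a1d: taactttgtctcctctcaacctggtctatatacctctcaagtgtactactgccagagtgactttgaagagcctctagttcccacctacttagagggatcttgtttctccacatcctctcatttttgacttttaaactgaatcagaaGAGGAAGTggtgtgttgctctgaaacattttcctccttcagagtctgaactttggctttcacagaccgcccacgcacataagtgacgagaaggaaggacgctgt
Mpeg1: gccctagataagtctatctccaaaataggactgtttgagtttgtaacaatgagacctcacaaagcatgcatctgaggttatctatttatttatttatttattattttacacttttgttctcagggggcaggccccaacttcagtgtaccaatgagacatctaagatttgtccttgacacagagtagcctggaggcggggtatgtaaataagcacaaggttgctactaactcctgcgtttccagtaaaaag
The motif stood in 5 of the 56 windows (8.93%), those of Vav1, Bcl2a1b, Bcl2a1d, Pirb and Rftn1, against 802 of 32851 windows of all genes (2.44%). Bcl2a1b and Bcl2a1d share 198 of 200 aligned bases here, so they are not separate cases. A match describes letters and shows no binding, and other forms of the site were not searched.

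Total counts lay between 17263359 and 18381419 per library. No label states that replicates had separate origins, so a spread between them may be technical. Markers of endothelium were mixed. Flt4, the receptor VEGFR3 of lymphatic endothelium, had 3.62 ± 0.73 CPM in control libraries and 3.52 ± 0.59 with red cells, Pecam1 14.98 ± 1.88 and 13.7 ± 0.40, and Eng 99.3 ± 8.19 and 98.96 ± 0.71 (SD, n = 3). Others were near 0 in both groups: Cdh5 had 7 counts over the controls and 11 over the treated libraries, Pdpn 6 and 2, and Kdr 0 and 1, and the count table used here does not list Prox1 or Lyve1. The cells are called by their label. Control replicate 2 stood apart from the other controls: without it, edgeR called 473 genes higher in place of 130 and 426 lower in place of 34, at an adjusted p under 0.05.

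Of 3942 genes with at most 15 control counts, 70 met the count rule (1.78%), 9 of them among the 14 left out. With the groups exchanged, 1 gene met the same rule: Mks1, a gene of the base of cilia, with 8, 4 and 3 counts in control libraries and 2, 0 and 1 with red cells, its sums of 15 and 3 lying exactly at the limits. The 61 genes together had 17, 28 and 32 counts across the 3 controls, in order of replicate number, and 646, 698 and 544 across the 3 treated libraries. This is 1.43 ± 0.41 CPM (counts scaled to the library total) for the controls and 34.7 ± 4.07 CPM with red cells (SD, n = 3). No control counts were found for 27 genes, 1 count for 19, 2 to 5 for 14 and 14 for Lyz2. Their treated sums began at 15 and had a median of 22, and 42 of the 61 were under 30, so most values rest on few reads.

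**Figure D1:**
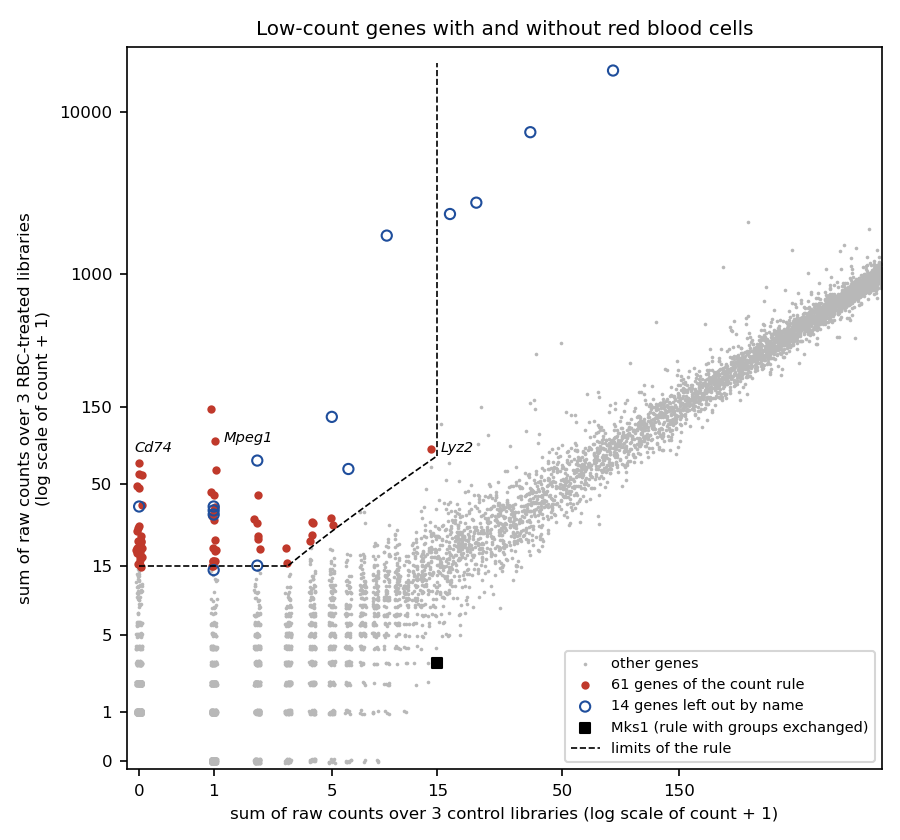
Each point is a gene, with its counts summed over 3 control libraries on the horizontal axis and over 3 RBC-treated libraries on the vertical axis, both on a log scale of count + 1 (small jitter on all but the open blue circles and the black square). The 61 genes (red) lie within the dashed limits of the rule, from 15 treated counts upward, whereas 1 gene, Mks1 (black square), meets the rule with the groups exchanged.

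All 61 genes had at least 1 count in each treated library. In 59 of them every treated library was above every control library, which held for 12.2% of all 15528 genes, a share from which nothing is read because the rule used these counts. The 2 others were Prxl2a and Sp110. The rule used the sum over the treated libraries, and the split of that sum among them is free of it. The library with the most counts held a median of 42.1% of a gene's treated counts, and over 50% in 7 genes. It held the most for Prxl2a (17, 4 and 1 counts in treated replicates 1 to 3, 77.3% in the first) and for Ly6d (16, 1 and 4). For these 2 genes the level rests on treated replicate 1.

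**Figure D2:**
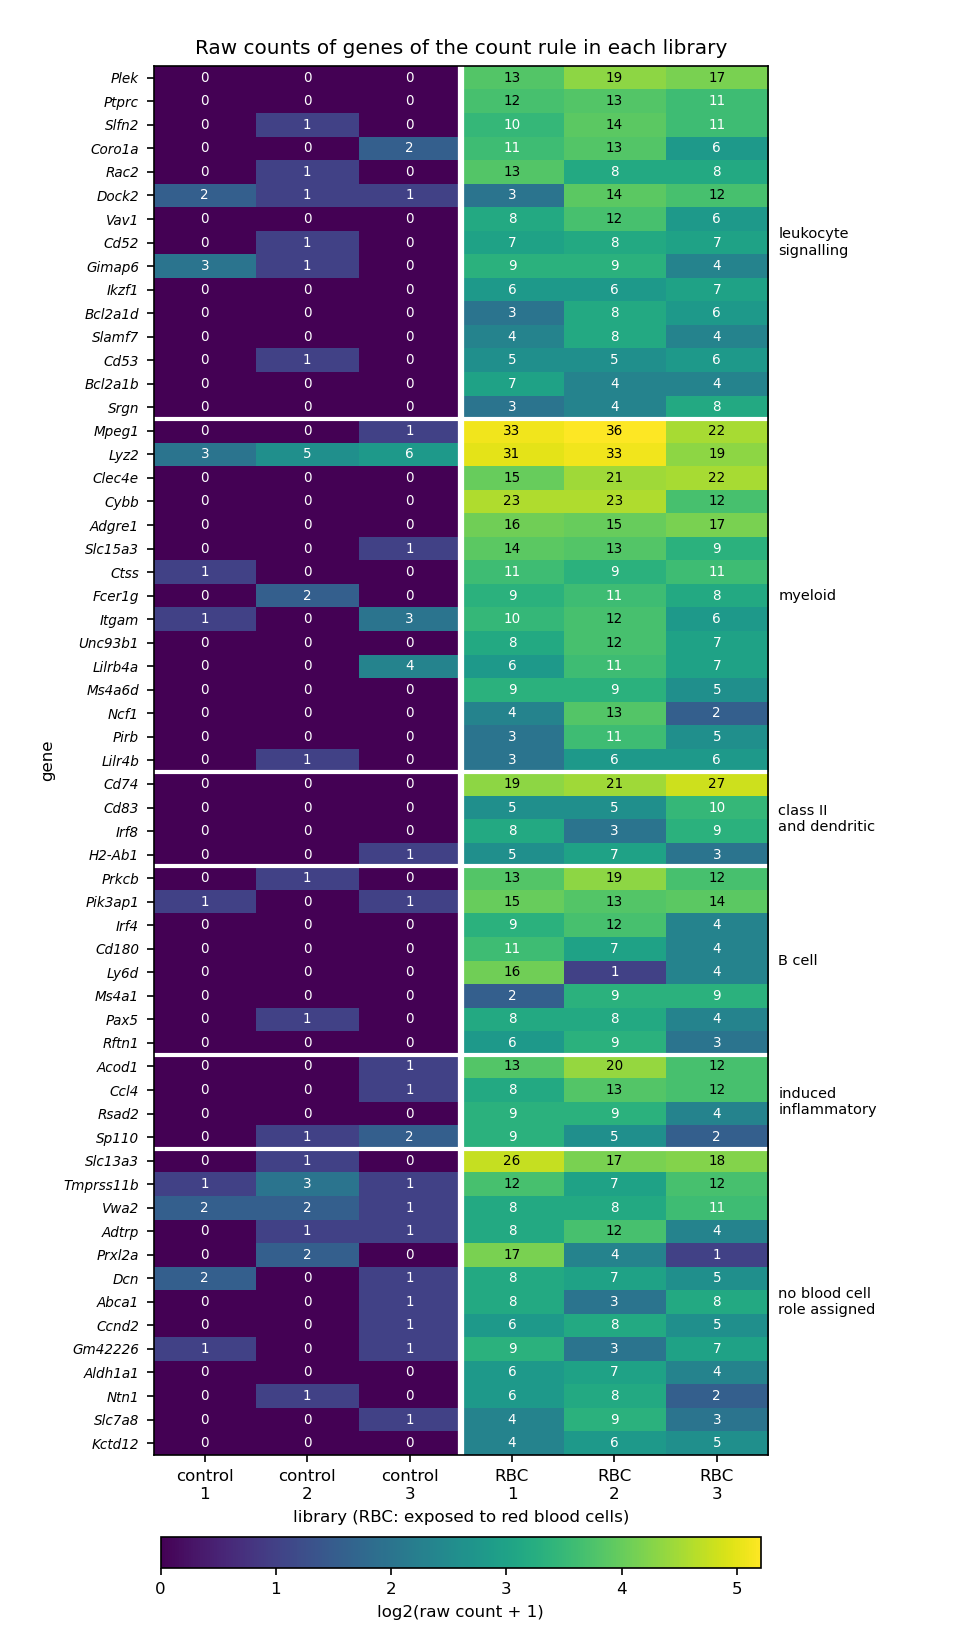
Each row is a gene that met the rule and is reported here, and each column a library; numbers are raw counts and colour is log2(raw count + 1), with genes grouped by known role. Most control cells of the plot hold 0 or 1, the highest being 6 for Lyz2, and treated columns hold at least 1 in every row, with 33, 36 and 22 for Mpeg1.

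Myeloid genes made up the largest share. The 15 genes with a known role there, a grouping made after their values were seen, held 588 of the 1888 treated counts (31.1%). They had 195, 235 and 158 counts in treated replicates 1 to 3 and 5, 8 and 15 in the controls. Mpeg1, which encodes the pore-forming perforin-2 of macrophages, had 0, 0 and 1 counts in control libraries and 33, 36 and 22 with red cells. That is a ratio of 89.6 with an exact 95% interval of 15.7 to 3576.4. The interval covers counting error only and does not allow for the choice of the gene by these same counts. Adgre1, the F4/80 antigen of mouse macrophages, had 0 counts in every control and 16, 15 and 17 with red cells, at least 15.7-fold higher when 3 counts are taken as the upper limit of the control sum. The 3 treated libraries were close to each other for Adgre1, and for Mpeg1 the third was lowest.

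Enzymes of microbe killing and digestion were among them. Cybb, the membrane subunit of the phagocyte NADPH oxidase, had no control counts and 23, 23 and 12 treated counts, at least 19.0-fold higher. Ncf1, a cytosolic subunit of the same oxidase, had no control counts and 4, 13 and 2. Lyz2, the lysozyme of myeloid cells, was the member with the highest control level, at 3, 5 and 6 counts against 31, 33 and 19. Its ratio of 5.84 (interval 3.29 to 11.1) was near the 5-fold limit, and the groups did not overlap. Ctss, a lysosomal protease that cuts the invariant chain, had 1, 0 and 0 against 11, 9 and 11. Slc15a3, a lysosomal peptide transporter, had 1 control count and 14, 13 and 9 treated counts, and Unc93b1, the chaperone of endosomal Toll-like receptors, had 0 control counts and 8, 12 and 7.

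Receptors of myeloid cells had the same profile. Clec4e, the receptor Mincle of activated macrophages and neutrophils, had no control counts and 15, 21 and 22 treated counts. Fcer1g, the signalling chain of Fc receptors, had 0, 2 and 0 against 9, 11 and 8, and Itgam, the integrin CD11b, had 1, 0 and 3 against 10, 12 and 6. The inhibitory receptor genes Lilrb4a (4 and 24 summed counts) and Pirb (0 and 19), the related Lilr4b (1 and 15) and the membrane protein gene Ms4a6d (0 and 23) complete the set. Lilrb4a and Lilr4b, and Pirb and its activating relatives, can share reads, so their split is uncertain. In Pirb and Ncf1 treated replicate 2 held more counts than the other two treated libraries together.

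These genes do not settle which myeloid cell they mark. Of the 43 genes of the monocyte and macrophage list, 37 are in the table, 32 had at most 15 control counts, and 9 of these are members. The 23 others summed to 38 counts in control libraries and 136 with red cells. A limit on control counts by itself favours a higher treated sum, and the share over all such genes was not computed. Nothing is therefore read from the sums of genes outside the rule, here or in the other lists. Among the 23 others the scavenger receptor genes Msr1 and Marco had 0 control counts and 13 and 10 treated counts. The blood monocyte genes Ccr2 and Ly6c2 had 1 treated count each, and the resident macrophage genes C1qa and C1qb had 1 and 2. Of the neutrophil list 21 of 30 genes are in the table and Clec4e is the 1 member. The neutrophil genes Ly6g, Mpo and Cxcr2 had 0 treated counts and Csf3r had 4. Others of this list were higher with red cells. Clec4d, a lectin receptor, had 1, 2 and 1 counts in control libraries and 9, 3 and 4 with red cells, and the formyl peptide receptor genes Fpr1 and Fpr2 had 0 control counts and 12 and 5 treated counts. S100a8 had 6, 6 and 8 against 13, 8 and 16. Slpi, a protease inhibitor of neutrophils and epithelia, had 139, 146 and 127 against 258, 288 and 279 and was called higher (edgeR log2 fold change 0.98 ± 0.09 SE, adjusted p = 0.00078). Mxd1 had 4.15 ± 0.16 and 3.75 ± 0.80 CPM (SD, n = 3) and was not called (edgeR adjusted p = 0.77).

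Some myeloid genes were already expressed in control libraries and were at similar levels with red cells. Csf1r, the receptor of the macrophage growth factor, had 24.98 ± 2.72 CPM in control libraries and 24.7 ± 1.53 CPM with red cells (SD, n = 3). The lysosomal protein gene Cd68 had 20.6 ± 1.39 and 21.2 ± 0.80 CPM. Cd14, the lipopolysaccharide co-receptor, had 6.66 ± 0.69 and 7.31 ± 0.32 CPM. None of these 3 passed edgeR's quasi-likelihood test (adjusted p from 0.69 to 0.96, log2 fold changes from -0.02 to 0.13). The sign for Csf1r turned without control replicate 1 or 3 or treated replicate 3. Levels of Csf1r and Cd68 in the controls were thus far above the treated level of any member.

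Genes of white cells in general came next in the same grouping by role, with 15 genes and 376 treated counts (19.9%). Ptprc had no control counts and 12, 13 and 11 with red cells, an even split, at least 11.8-fold higher. Plek, a protein kinase C substrate of platelets and white cells, had no control counts and 13, 19 and 17. The exchange factor genes Vav1 and Dock2 had 0 and 4 control counts and 26 and 29 treated counts, the GTPase gene Rac2 had 1 and 29, and Coro1a, an actin-binding coronin, had 2 and 30. For Dock2 treated replicate 1, with 3 counts, was just above the highest control, with 2.

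The remaining genes of this kind had lower counts. Ikzf1, the lymphoid transcription factor Ikaros, had no control counts and an even 6, 6 and 7. The surface antigen genes Cd52 and Cd53 had 1 control count each and 22 and 16 treated counts. Slfn2, a schlafen gene of lymphocytes and myeloid cells, had 1 and 35, the lymphocyte GTPase gene Gimap6 had 4 and 22, and the receptor gene Slamf7 had 0 and 16. Srgn, the granule proteoglycan serglycin, had 0 and 15. The survival genes Bcl2a1b and Bcl2a1d, whose promoters are printed above, had no control counts and 15 and 17 treated counts, and reads can be shared between them.

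Of the 30 genes of the pan-leukocyte list, 29 are in the table, 19 had at most 15 control counts, and 9 of these are members. All 10 others of the 19 had a higher treated than control sum, 48 counts in all in control libraries and 143 with red cells. The limit on control counts favours this direction, so nothing is read from it. Among the genes of that list with more than 15 control counts, 2 passed edgeR's test over all genes, which called 1.16% of 11208 tested genes higher and 0.303% lower. They are named because of their values. Lcp1, the actin bundling protein L-plastin, had 7, 13 and 19 counts in control libraries and 48, 54 and 41 with red cells (log2 fold change 1.84 ± 0.28 SE, adjusted p = 0.012). Itgb2, the shared chain of the leukocyte integrins, had 21, 15 and 20 against 44, 56 and 35 (1.24 ± 0.24, adjusted p = 0.046). In both genes every treated library was above every control. The Lcp1 call was lost without treated replicate 1 or 2 (adjusted p = 0.070 and 0.090), and that of Itgb2 with the replicate block, with a filter at 1 CPM, and without any one library other than control replicate 2 (adjusted p between 0.051 and 0.22).

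The list also held genes that the control libraries held at high levels. Arhgdib had 203.5 ± 13.5 CPM in control libraries and 219.2 ± 6.85 with red cells, Nckap1l 122 ± 19.4 and 130.0 ± 4.91, and Ptpn6 36.7 ± 1.14 and 35.8 ± 2.45 (SD, n = 3). These 3 were not called (edgeR adjusted p between 0.61 and 0.86). Without control replicate 2 Arhgdib was called higher (adjusted p = 0.00067) and the sign of Nckap1l turned. A white cell gene by name is therefore not always silent in these cells.

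Class II genes were few and led by Cd74. Cd74, the invariant chain that guides class II molecules to the endosome, had no control counts and 19, 21 and 27 treated counts, at least 21.98-fold higher. H2-Ab1, a chain of the class II molecule itself, had 0, 0 and 1 against 5, 7 and 3. Its partners H2-Aa and H2-Eb1 missed the rule with 12 and 13 treated counts and 1 and 0 control counts. Cd83, a surface protein of activated dendritic and B cells, had no control counts and 5, 5 and 10, and Irf8, a transcription factor of dendritic cells, monocytes and B cells, had none and 8, 3 and 9.

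Other dendritic cell genes of the list ranged from near 0 to well expressed in both groups. Zbtb46, a transcription factor of classical dendritic cells, had 9.46 ± 0.56 CPM in control libraries and 9.46 ± 0.74 with red cells, and H2-DMa, which helps load class II molecules, had 5.22 ± 0.96 and 4.55 ± 0.44 (SD, n = 3). Neither was called (edgeR adjusted p = 0.995 and 0.68), and H2-DMb1, the partner chain of H2-DMa, had 8, 9 and 7 counts against 12, 14 and 6. Flt3, a receptor of dendritic cell precursors, had 1 and 1, Siglech of plasmacytoid dendritic cells had 1 and 0, and Ciita, the master regulator of class II genes, had 0 and 1. Ccr7, the homing receptor of migrating dendritic cells and lymphocytes, had 7 and 28 counts and fell short of the 5-fold limit. Of the 19 genes of the list 16 are in the table and 12 had at most 15 control counts. The 8 of these outside the rule had 17 control and 69 treated counts.

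Genes known for B cell identity were among the members, each resting on few reads. Pax5, the transcription factor that fixes the B cell fate, had 0, 1 and 0 counts in control libraries and 8, 8 and 4 with red cells. Ms4a1, the antigen CD20, had no control counts and 2, 9 and 9. Ly6d, a marker of early B cells that squamous epithelia also express, had none and 16, 1 and 4. Treated replicate 1 was the lowest for Ms4a1 and the highest for Ly6d.

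Another 5 genes of this kind work in B cell signalling, though myeloid cells use most of them too. Prkcb, the kinase that couples the B cell receptor to NF-kB, had 0, 1 and 0 against 13, 19 and 12. Pik3ap1, the adaptor BCAP of B cells and macrophages, had 1, 0 and 1 against 15, 13 and 14. Cd180, a Toll-like receptor relative, had 0 and 22 summed counts, Irf4, a transcription factor of activated B cells, 0 and 25, and the raft protein gene Rftn1 0 and 18. The 9 genes with a B cell role, a grouping made after their values were seen, had 4 control counts and 230 treated counts (12.2% of the treated counts of all members). Only 4 of the 9 are in the B cell list, and the others were added by hand, so the share depends on that choice.

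The B cell list as a whole had 20 genes, of which 16 are in the table and 14 had at most 15 control counts. The 10 that are not members summed to 21 control and 69 treated counts, with 8 higher and 2 lower in the treated libraries. The receptor gene Cd22 and the transcription factor gene Spib had 0 and 10 counts each, Cd79b 0 and 8 and Fcmr, the IgM Fc receptor, 1 and 12. Cd79a, the partner of Cd79b, had 7 and 13. Blk and Pou2af1 were present in both groups, at 101 and 84 counts for Blk and 31 and 31 for Pou2af1. Ighm, Ighd, Igkc and Iglc2, the immunoglobulin chains, are not listed in the table used here.

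Several genes are induced when phagocytes are stimulated, and other cells can induce some of them. Acod1, the enzyme that makes itaconate in activated macrophages, had 0, 0 and 1 against 13, 20 and 12, a ratio of 44.3 (exact 95% interval 7.56 to 1787.97). The chemokine gene Ccl4 had 0, 0 and 1 against 8, 13 and 12. The interferon-induced genes Rsad2 and Sp110 had 0 and 3 control counts and 22 and 16 treated counts, and for Sp110 the groups met at 2 counts. Ccl3, Tnf and Il1b, also induced by stimulation and left out by name, had 70, 36 and 34 treated counts and 2, 1 and 1 control counts.

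Per gene length, the median member had a treated level of 0.17 FPKM (the authors' values, counts scaled to gene length and library total). The lowest was Abca1, at 0.034 FPKM.

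The globins and Alas2 were far higher and were left out by name. These 5 genes summed to 11217, 11421 and 9679 counts in the treated libraries and to 49, 52 and 65 in the controls. The 61 members had 5.76, 6.11 and 5.62 counts per 100 counts of these 5 genes in treated replicates 1 to 3. The share thus differed little among the treated libraries, and treated replicate 3 was lowest in both sums. The control sum was 0.51% of the treated sum for the 5 erythroid genes and 4.08% for the members. The rule limited this percentage for the members and was not met by the globins, so the values are not read against each other. Red cell genes that other tissues also use were high in both groups: Slc25a37, a mitochondrial iron carrier, had 108.8 ± 9.37 CPM in control libraries and 112.1 ± 0.67 with red cells, Fech, the last enzyme of heme synthesis, 90.2 ± 1.03 and 82.9 ± 2.40, and Bnip3l, a mitophagy receptor, 58.5 ± 2.42 and 51.1 ± 1.04 (SD, n = 3). These 3 were not called (edgeR adjusted p from 0.26 to 0.82), but without control replicate 2 Bnip3l was called lower (log2 fold change -0.19, edgeR adjusted p = 0.0081). Slc4a1, the anion exchanger of the red cell membrane, stayed near 0, with 0 and 2 counts. The 16 near-silent genes of the erythroid list outside the rule and not left out by name summed to 44 control and 62 treated counts.

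**Figure D3:**
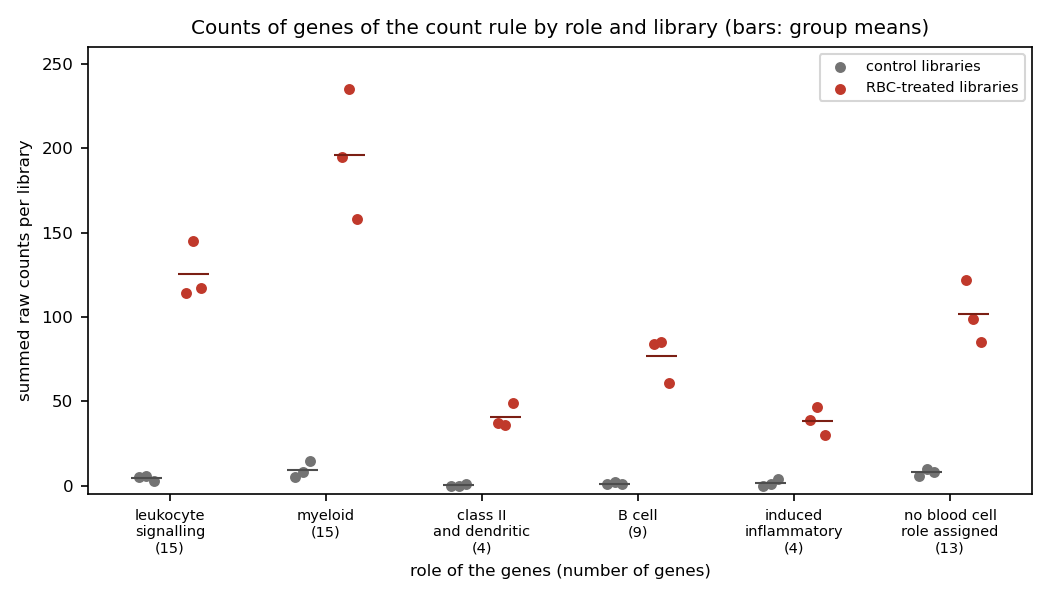
Raw counts of members summed by known role in each library, for roles with several genes, with the number of genes in parentheses; each point is a library and each bar the mean of 3. The myeloid genes reach 158 to 235 counts in the treated libraries against 5 to 15 in the controls. In every role plotted each treated library is above each control library, from which nothing is read because the rule chose these genes by their counts.

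No member came from the T and NK cell list. Of its 29 genes, 14 are in the table and 11 had at most 15 control counts. Their sum was 41 counts in control libraries and 36 with red cells, with 3 genes higher, 7 lower and 1 equal. Lck had 8 and 6 counts, Cd2 6 and 5, Il7r 0 and 2, and Nkg7 1 and 0, whereas Cd3e, Cd4 and Cd8a are not listed. Tcf7, the most abundant of the list, was expressed in both groups (13.99 ± 0.86 and 12.1 ± 0.58 CPM, edgeR adjusted p = 0.43). Cd28 had 13, 9 and 10 counts against 8, 6 and 10, and Skap1 7, 9 and 7 against 3, 4 and 2.

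The platelet list and the list of mast cells, basophils and eosinophils gave no member either. The 8 near-silent platelet genes of the table had 18 control and 29 treated counts, with Pf4, an abundant platelet transcript, at 0 and 1 and Gp1ba, part of the von Willebrand factor receptor, also at 0 and 1. Ppbp, another platelet chemokine, had 5, 16 and 8 counts in control libraries and 22, 22 and 18 with red cells and was not called (adjusted p = 0.32 in edgeR, and 0.0050 without control replicate 2). Selp, the adhesion receptor P-selectin of platelets and endothelium, had 76, 70 and 69 against 97, 101 and 93, so that the groups did not overlap, but was not called (log2 fold change 0.41 ± 0.12 SE, edgeR adjusted p = 0.21). The ADP receptor gene P2ry12 had 61 and 82 summed counts (edgeR adjusted p = 0.64). Gata2, a transcription factor of mast cells, blood stem cells and endothelium, had 18.7 ± 1.03 CPM in control libraries and 16.8 ± 1.30 with red cells (SD, n = 3; edgeR adjusted p = 0.59). The 5 near-silent genes of mast cells, basophils and eosinophils had 7 and 15 counts, with Mcpt8 at 7 and 8 and Il5ra at 0 and 3. The 17 near-silent neutrophil genes outside the rule had 29 control and 71 treated counts. The blood cell lists other than the pan-leukocyte and neutrophil ones had 25 genes tested in edgeR that were outside the rule and not left out by name. Of these 25 genes 0 were called by edgeR and 0 by DESeq2, with 5 at an unadjusted edgeR p under 0.05. Over all genes 1120 of 11208 were under that p. The pan-leukocyte and neutrophil lists held 2 and 1 called genes outside the rule, named above, so the 0 holds for the other lists only. In bulk RNA, fewer cells of a type and less RNA per cell cannot be told apart, so these counts give no number of cells.

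**Figure D4:**
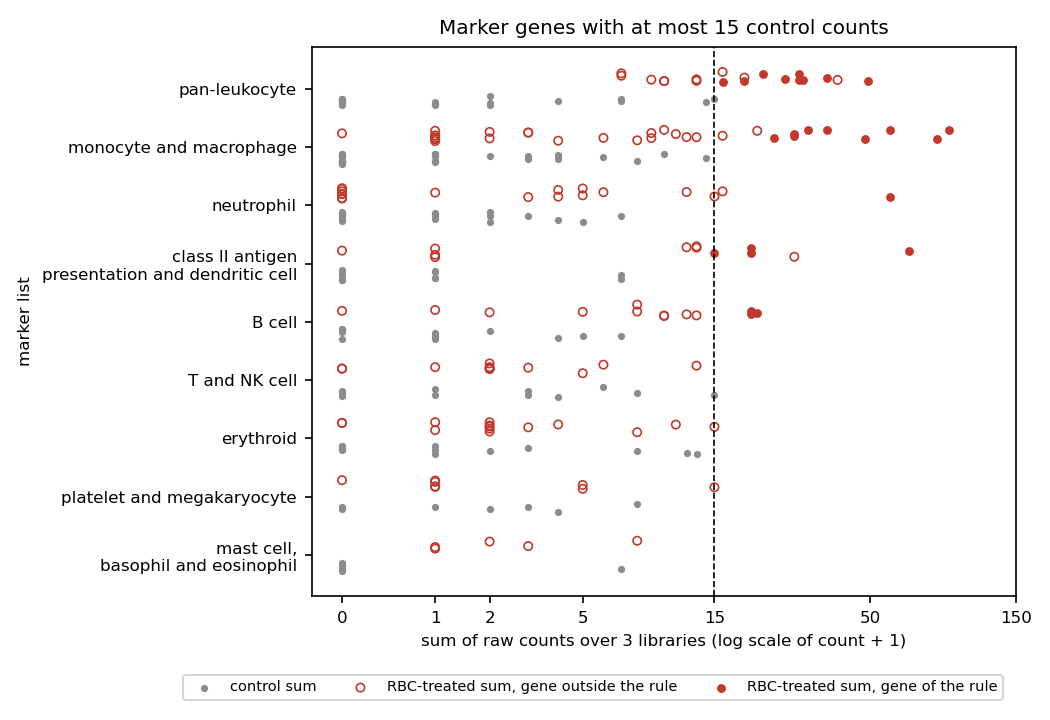
Genes of 9 blood cell marker lists, as far as reported here, that had at most 15 control counts, without the genes left out by name; grey points are control sums, red points RBC-treated sums over 3 libraries on a log scale of count + 1, filled for the genes of the rule, with the dashed line at 15. Filled points are most numerous in the pan-leukocyte list and the monocyte and macrophage list, with 9 each, and the lists of T and NK cells, platelets, and mast cells, basophils and eosinophils have 0.

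Another 13 genes have no blood cell role assigned here. They had 24 control counts and 306 treated counts (16.2% of the total), and several are known from other tissues. Slc13a3, a carrier of dicarboxylates in kidney, led them with 0, 1 and 0 against 26, 17 and 18 counts. Tmprss11b, a protease of squamous epithelia, had 1, 3 and 1 against 12, 7 and 12, and Vwa2, a matrix protein of basement membranes, had 2, 2 and 1 against 8, 8 and 11. These last 2 had more control counts than any other member but Lyz2, and their groups did not overlap.

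The rest of these genes had 24 treated counts or fewer. Dcn, the matrix proteoglycan decorin of fibroblasts, had 2, 0 and 1 against 8, 7 and 5, while Lum and Col3a1, also fibroblast genes, had 0 and 2 and 17 and 11 summed counts. Col1a2, a collagen gene of the same list, was high in both groups, at 464 ± 25.8 CPM in control libraries and 448 ± 9.93 with red cells (SD, n = 3). Adtrp, a regulator of a coagulation inhibitor, had 2 and 24. Aldh1a1, which makes retinoic acid, had 0 and 17, the guidance gene Ntn1 had 1 and 16, and the amino acid transporter gene Slc7a8 had 1 and 16. Abca1, which exports cholesterol, and Ccnd2, a cyclin of the early cell cycle, had 1 and 19 each. Kctd12, a subunit of neuronal receptors, had 0 and 15 and the uncharacterised Gm42226 had 2 and 19. Prxl2a had 2 and 22, mostly in treated replicate 1. Dcn was the 1 member from the list of 16 fibroblast and mural genes, and the lists of 20 endothelial and 12 epithelial and mesothelial genes gave 0.

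The edge of the rule is close to many members. Just inside stood Bcl2a1b and Kctd12 with 0 control and 15 treated counts and H2-Ab1 with 1 and 15, and by ratio Sp110 (5.33), Vwa2 (5.40) and Gimap6 (5.50). Just outside stood Cd72, a surface receptor of B cells, with 0 and 14, and Cyb5r2 and Cyria with 1 and 2 control counts and 14 treated counts. By ratio Inpp5j (4.86), Camk1d (4.75) and Gm7040 (4.71) missed it. The control ceiling left out Trf, the iron carrier transferrin, with 16 and 115 counts, Nos2 with 23 and 153 and Cxcl3 with 39 and 314.

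In the fit over all genes 14 of the 61 members had enough counts to be tested by edgeR, and 47 did not. These 14 could pass the filter only through the treated group, so they had to differ. All 14 were called higher at a Benjamini-Hochberg adjusted p of 0.05, beside 1.16% of all tested genes, and nothing is read from that. They included Acod1, Adgre1, Cd74, Clec4e, Cybb, Lyz2, Mpeg1, Pik3ap1, Plek, Prkcb, Ptprc, Slc13a3 and Slfn2. Without treated replicate 2, 8 members were called. With each library left out in turn and the sums of its group scaled up, 49 to 59 of the 61 still met the rule, and 40 met it in all 6 cases.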

How the data were processed

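Poly(A) RNA of 3 control and 3 RBC-treated samples was sequenced with a stranded kit, per the labels' protocols. Groups and replicate numbers come from the sample titles. The authors deposited raw counts per gene symbol, with no normalization, and FPKM values of the same 15528 symbols, which scale the same counts by gene length and library total (largest relative departure 3.4e-08). The submitters' processing notes name GRCm39; no source used here gives the aligner, the counter with its strand setting, or the annotation, so reads of overlapping genes on opposite strands may be mixed.

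Members and marker lists were chosen with earlier results of these data known. Sums, CPM (counts over the library total) and ratios with exact Clopper-Pearson 95% intervals were computed from the counts. So were bounds against 3 counts over the controls (0.056 CPM). With no molecular identifiers the intervals cover counting error only. The bounds take the treated sum as exact, so they are not comparable with the lower ends of the intervals. Intervals and bounds do not allow for the choice of genes by these counts. The test was that of edgeR 4.0.16 under R 4.3.3 (filterByExpr with minimum count 10 and minimum total 15, TMM, quasi-likelihood test, Benjamini-Hochberg), after a check on simulated data. Alternatives were RLE or no scaling, DESeq2 1.42.0, other filters, a replicate block and each library left out. Named genes are the members in a marker list, the 12 highest other members, genes at the limits, and the 3 highest non-members of each blood cell list; most other members were then named too, and further list genes after their values were seen. Known roles outside the lists were assigned by hand. Values of a few genes are not reported here.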

Additional observations from a re-analysis of the deposited data

How the results depend on the processing

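The 61 genes became 56 with counts scaled to equal library size, 80 and 51 at 3-fold and 10-fold, 60 with at most 5 control counts and 19 with at least 30 treated counts. Leaving out a library gave 61 to 67. Members called by edgeR numbered 14 of 61, 23 with no filter and 4 with a filter at 1 CPM in 3 libraries, since these change how many members are tested, and 8 to 21 with a library left out. Over all genes 130 were called higher and 34 lower. With a library left out these counts ran from 60 to 473 and from 2 to 426. Genes called lower were 67 in DESeq2. With the replicate number as a block 113 genes were higher, 13 lower and 14 members called; samples with the same number did not pair by correlation of their deviations (-0.014, 0.045 and 0.063), and the numbers carry no other link. The cause of the other differences was not tested. Of 262 alternative fits of named genes outside the rule 238 kept direction and call. The sign turned with a library left out for Csf1r (-0.10 to 0.053), Mxd1 (-0.30 to 0.0024), Nckap1l (-0.034 to 0.18), Pou2af1 (-0.15 to 0.15), Slc25a37 (-0.022 to 0.099) and Zbtb46 (-0.041 to 0.065) in log2 fold change, where no call was made in those fits. The mean treated level without treated replicate 1 was 0.138 in place of 0.389 CPM for Ly6d and 0.137 in place of 0.406 for Prxl2a, and without replicate 2 it was 0.167 in place of 0.348 for Ncf1.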

Other observations

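Genes that fell short of the rule by few counts included further genes of myeloid and B cells. There were 42 genes with 10 to 14 treated counts that met the other limits, 26 of them with 0 control counts, and 12 stood in a blood cell list. Chosen after their values were seen, Btk, the kinase downstream of the B cell receptor, had 2 control and 11 treated counts. The inhibitory receptor genes Fcgr2b and Btla had 0 and 12 each, and Cyba, the partner of Cybb in the phagocyte oxidase, 0 and 11. Tyrobp, the signalling adaptor of myeloid receptors, had 0 and 11, and Il10 had 0 and 11.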
